A study of Mus musculus with 12 samples.

Results

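Matrix metalloproteinases are zinc enzymes that cut collagens, laminins and other proteins around cells, and the tissue inhibitors of metalloproteinases (TIMPs) bind and block them. The 10 genes followed here were chosen by name, with earlier results of these data known. They are the 6 metalloproteinases Mmp2, Mmp3, Mmp9, Mmp11, Mmp14 and Mmp23, and the 4 inhibitors Timp1, Timp2, Timp3 and Timp4. Their Ensembl identifiers were matched to symbols through the GENCODE M21 annotation, and all 10 were among the 38924 genes counted. In the mammary gland the enzymes are known for opening the matrix during duct branching and for taking the gland apart after weaning, with stromal fibroblasts as a main source. Most are secreted as inactive proenzymes that must be cleaved before they act, so an mRNA level is not an enzyme activity.

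The RNA came from C57BL/6 mice of 2 lines, and each mouse carried the ROSAmTmG reporter, in which Cre recombination replaces membrane tdTomato with membrane GFP for good in a cell and its descendants. The first line carried Myf5-Cre, driven by the promoter of a myogenic factor, and the other Ucp1-iCre, driven by the promoter of the brown fat uncoupling protein. The groups were Myf5 GFP-positive and Myf5 GFP-negative myoepithelial cells, Ucp1 GFP-positive and Ucp1 GFP-negative myoepithelial cells, Ucp1 GFP-positive brown adipocytes and Myf5 GFP-positive brown adipocytes, with 2 libraries in each and 12 in all. Myoepithelial cells were sorted as lineage-negative, CD24-positive and CD29-high on lactation day 10, and brown adipocytes came from virgin females at 8 weeks of age. GFP therefore records past recombination and not present expression of either driver gene, and no GFP-negative brown adipocytes were analysed here. The design gives 2 mice per group but not whether each library is 1 mouse. It also does not say whether GFP-positive and GFP-negative cells came from the same mice. The p-values below therefore measure only the spread between these libraries. For each gene that spread was pooled over all 6 groups, so it also includes groups outside a given comparison. Whole RNA was amplified by a low-input cDNA kit (SMART-Seq v4) and sequenced.

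Library totals lay between 11027738 and 32956480 counts. Myoepithelial cells with the Ucp1 label gave libraries unlike the rest, with 10909 and 10560 genes detected against 19794 and 19213 in Ucp1 GFP-negative cells, and their replicates correlated at r = 0.731 over log2(CPM + 1), where the other 5 groups had r = 0.879 to 0.990 (CPM, counts scaled to library size after TMM normalization). Of the 8 myoepithelial markers, none was at 0 in a mammary library except Trp63 in the second Ucp1 GFP-positive one, but their summed level was 2175 and 3457 CPM in Myf5 GFP-positive against 7972 and 14782 CPM in Myf5 GFP-negative cells. It was 1284 and 2849 CPM in Ucp1 GFP-positive against 9371 and 10658 CPM in Ucp1 GFP-negative cells. Most of each sum was Acta2 and Myh11. Krt5 had 10.0 and 31.6 CPM in Myf5 GFP-positive against 179 and 657 CPM in Myf5 GFP-negative cells. Krt14 had 3.99 and 54.4 against 493 and 831 CPM, and Krt17 21.5 and 88.5 against 986 and 1267 CPM. In neither line was a marker of this list higher in both GFP-positive libraries than in both GFP-negative ones. All 8 brown adipocyte markers were detected in every brown library, whereas Ucp1 itself had 0 counts in all 4 GFP-positive mammary libraries. In bulk RNA, fewer cells of a type and less RNA per cell cannot be told apart.

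The promoter windows of 4 members are shown here because they stand for the contrasting patterns described below: Mmp3 and Timp1, highest in Myf5 GFP-positive cells, and Timp3 and Timp4, abundant in every mammary library. Each runs 5′ to 3′ on the gene's strand from 250 bases before to 50 after the RefSeq start (build GRCm38.p6), and 8 of 10 members had such a window. Capitals mark the AP-1 motif TGANTCA, the SP1 motif GGGCGG and the TATA motif TATAAA, searched on both strands, so that SP1 can also read CCGCCC.
Mmp3: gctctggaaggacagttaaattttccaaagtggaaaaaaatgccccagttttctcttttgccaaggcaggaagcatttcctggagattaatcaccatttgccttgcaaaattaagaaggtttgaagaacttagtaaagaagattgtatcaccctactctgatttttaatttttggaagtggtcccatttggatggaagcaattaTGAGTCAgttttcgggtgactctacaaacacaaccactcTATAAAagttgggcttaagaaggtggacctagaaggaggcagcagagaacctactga
Timp1: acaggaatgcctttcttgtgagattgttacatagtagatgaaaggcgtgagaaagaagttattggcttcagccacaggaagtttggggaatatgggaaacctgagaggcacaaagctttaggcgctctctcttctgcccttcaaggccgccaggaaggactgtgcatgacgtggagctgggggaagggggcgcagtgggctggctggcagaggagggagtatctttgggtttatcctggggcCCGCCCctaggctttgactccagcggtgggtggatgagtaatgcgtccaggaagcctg
Timp3: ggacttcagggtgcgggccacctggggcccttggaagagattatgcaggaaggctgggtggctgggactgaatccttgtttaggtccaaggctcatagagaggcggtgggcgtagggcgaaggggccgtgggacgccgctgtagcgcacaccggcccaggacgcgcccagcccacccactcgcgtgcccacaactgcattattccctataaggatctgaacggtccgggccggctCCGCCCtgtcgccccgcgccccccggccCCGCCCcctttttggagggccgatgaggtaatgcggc
Timp4: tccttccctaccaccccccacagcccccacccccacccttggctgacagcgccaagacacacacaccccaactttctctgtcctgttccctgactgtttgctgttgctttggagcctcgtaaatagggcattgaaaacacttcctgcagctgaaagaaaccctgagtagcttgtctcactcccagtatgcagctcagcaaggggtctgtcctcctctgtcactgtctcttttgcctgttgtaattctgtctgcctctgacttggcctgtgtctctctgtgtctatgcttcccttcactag
The windows lie at chr9:7445572-7445871 (plus strand) for Mmp3, chrX:20869916-20870215 (plus) for Timp1, chr10:86300162-86300461 (plus) for Timp3 and chr6:115252156-115252455 (minus) for Timp4. Mmp3 held 1 AP-1 match, beginning at base 205 of the window, and 1 TATA match. The AP-1 letters occur in 7.93% of 27025 promoter windows of this length, the TATA letters in 14.2% and the SP1 letters in 35.9%. Timp3 held 2 SP1 matches and Timp1 held 1, whereas the Timp4 window held none of the 3 motifs. These matches are letters in a window and not measured binding.

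The first question was how the enzymes and inhibitors of Myf5 GFP-positive myoepithelial cells differed from those of GFP-negative cells of the same sort. All 6 metalloproteinases and 3 of the 4 inhibitors were higher in both GFP-positive libraries than in both GFP-negative ones, and Timp4 was lower in both. Mmp2, Mmp3 and Mmp23 had the largest fold differences. No single member passed the test in the fit over all 12 libraries.

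Mmp3, the secreted stromelysin-1 that cuts many matrix proteins (ENSMUSG00000043613, mm10 chr9:7445822-7455975, plus strand), had 1052 and 377 CPM in Myf5 GFP-positive libraries, against 42.1 and 9.63 CPM in GFP-negative libraries. The groups did not overlap, and the fitted log2 difference was 4.79 (SE 2.08, edgeR adjusted p = 0.532). Mmp2, gelatinase A, which cuts denatured collagen and type IV collagen (ENSMUSG00000031740, mm10 chr8:92827291-92853420, plus strand), had 519 and 539 CPM in GFP-positive libraries against 29.7 and 21.7 CPM in GFP-negative ones. The libraries of each group lay close together, and the log2 difference was 4.36 (SE 1.99, edgeR adjusted p = 0.556). Mmp23, a membrane-anchored member that is released by cleavage (ENSMUSG00000029061, mm10 chr4:155650655-155653384, minus strand), had 63.4 and 53.7 CPM against 3.46 and 0.931 CPM, a log2 difference of 4.73 (SE 2.05, edgeR adjusted p = 0.520).

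Mmp14, the membrane-type enzyme that activates pro-Mmp2 at the cell surface (ENSMUSG00000000957, mm10 chr14:54431612-54445364, plus strand), had 106 and 360 CPM in Myf5 GFP-positive libraries against 19.7 and 75.3 CPM in GFP-negative libraries. The lower GFP-positive value lay above the higher GFP-negative one by less than the gap within either group (log2 2.29, SE 1.60, edgeR adjusted p = 0.821). Mmp11, stromelysin-3, an enzyme of stroma beside remodelling epithelium (ENSMUSG00000000901, mm10 chr10:75923222-75936496, minus strand), had 43.8 and 26.2 CPM against 12.9 and 5.18 CPM (log2 1.96, SE 0.90, edgeR adjusted p = 0.562). Mmp9, gelatinase B, an enzyme abundant in neutrophils and macrophages (ENSMUSG00000017737, mm10 chr2:164940780-164955850, plus strand), was barely detected. It had 30 and 23 counts in GFP-positive libraries, against 0 and 7 counts in GFP-negative ones.

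Among the inhibitors, Timp1, a soluble inhibitor induced in many stromal cells (ENSMUSG00000001131, mm10 chrX:20870166-20874735, plus strand), had 83.8 and 26.9 CPM in Myf5 GFP-positive libraries, against 5.64 and 2.83 CPM in GFP-negative libraries (log2 3.71, SE 1.91, edgeR adjusted p = 0.626). Timp2, which both inhibits Mmp2 and serves as the bridge by which Mmp14 activates it (ENSMUSG00000017466, mm10 chr11:118301069-118355740, minus strand), had 367 and 929 CPM against 26.9 and 142 CPM (log2 2.94, SE 1.56, edgeR adjusted p = 0.645). Both GFP-positive values of Timp2 exceeded both GFP-negative ones, while the libraries within each group differed widely. Timp3, the inhibitor that stays bound to the matrix (ENSMUSG00000020044, mm10 chr10:86300372-86349506, plus strand), had 1129 and 1333 CPM against 1115 and 680 CPM (log2 0.46, SE 0.55, edgeR adjusted p = 1). The estimate plus and minus 2 standard errors spans -0.65 to 1.56, and the nearest libraries of the groups were almost level. Timp4, an inhibitor known from heart, fat and vessels (ENSMUSG00000030317, mm10 chr6:115241892-115252205, minus strand), was the member that went the other way. It had 410 and 317 CPM in GFP-positive libraries against 2035 and 813 CPM in GFP-negative ones (log2 -1.97, SE 0.76, edgeR adjusted p = 0.447).

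**Figure D1:**
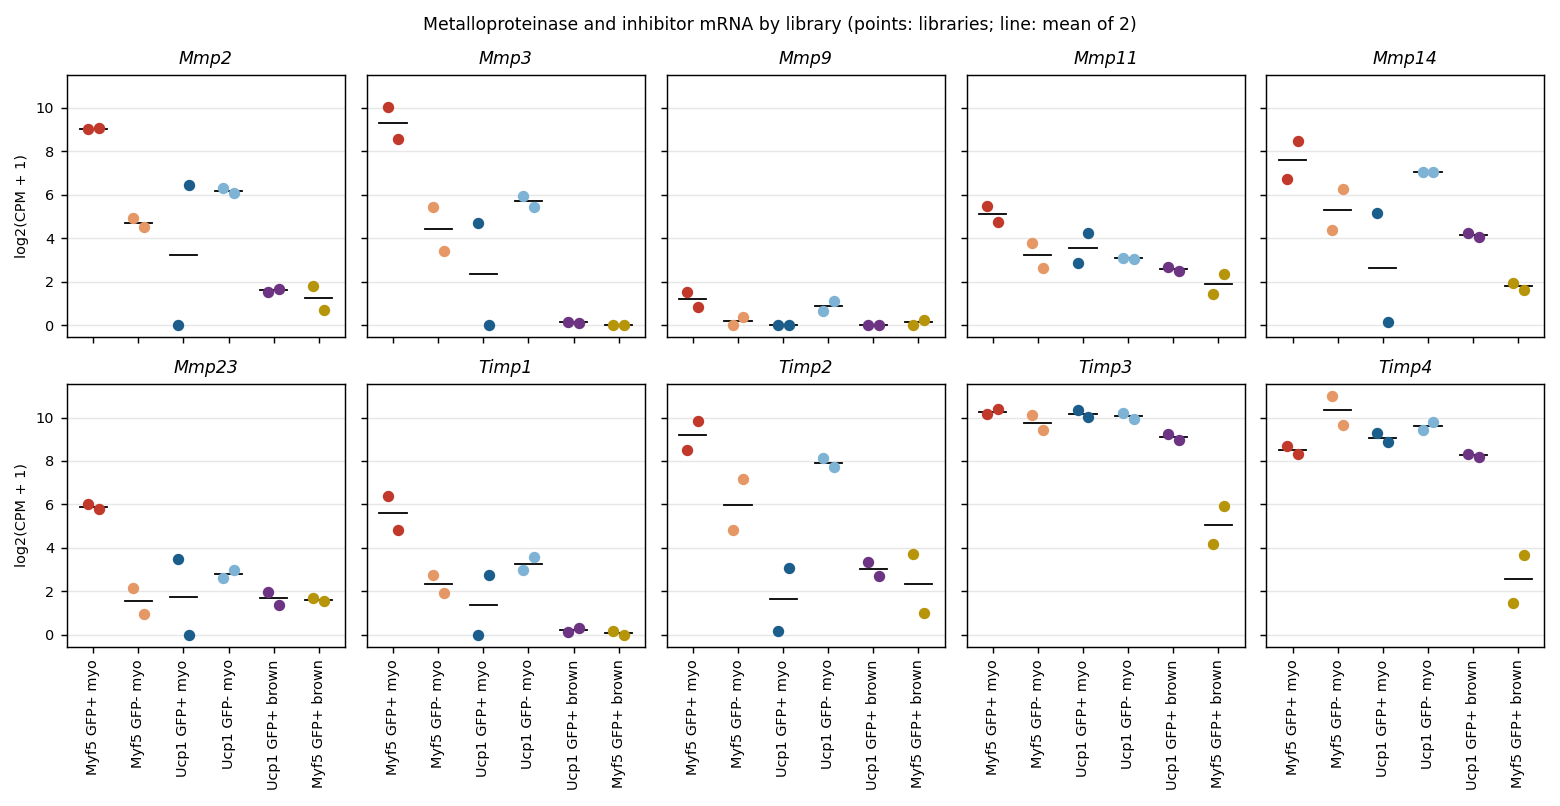
Level of each of the 10 members in every library, as log2(CPM + 1) on the vertical axis and by group on the horizontal axis (points are libraries, lines the mean of 2, myo is myoepithelial). Mmp2, Mmp3, Mmp11, Mmp23, Timp1 and Timp2 are highest in the Myf5 GFP-positive myoepithelial libraries, at 519 and 539 CPM for Mmp2, and several members fall to 0 in 1 of the 2 Ucp1 GFP-positive libraries.

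Of the 10 members, 9 were higher and 1 lower without overlap in Myf5 GFP-positive cells, whereas among all 16953 genes tested 14.5% were higher without overlap and 20.2% lower. The members' median log2 difference was 3.06, beside -0.06 over all genes tested. Since the members were chosen with earlier results of these data known, these contrasts with all genes are a description. EdgeR called 0 members and 0 genes at an adjusted p under 0.05 (0.00% of genes tested), while at an unadjusted p under 0.05 it marked 3 members (Mmp3, Mmp23 and Timp4) and 9.28% of all genes. DESeq2 called 0 members and 724 of all genes. When both Ucp1 GFP-positive myoepithelial libraries were left out of the fit, edgeR called 3 of 10 members as higher, against 1.09% of genes tested. These were Mmp2 (log2 4.36, SE 0.59, edgeR adjusted p = 0.0211), Mmp23 (log2 4.74, SE 0.75, edgeR adjusted p = 0.0295) and Mmp3 (log2 4.79, SE 0.84, edgeR adjusted p = 0.0398). Their log2 differences hardly changed, while over all 12 libraries their SE had been 1.99, 2.05 and 2.08. For Timp3 and Timp4 the SE did not fall (0.55 and 0.76 over all 12 libraries, 0.58 and 0.78 in this fit).

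Fibroblast markers moved with the same libraries. The 8 markers, Col1a1, Col1a2, Col3a1, Dcn, Lum, Pdgfra, Dpt and Thy1, summed to 19230 and 11808 CPM in Myf5 GFP-positive against 895 and 561 CPM in Myf5 GFP-negative cells, and none of the 8 was at 0 in any of these 4 libraries. The 5 pericyte markers summed to 2725 and 2366 CPM against 632 and 391 CPM. The 8 leukocyte markers had a lower sum, at 413 and 640 CPM against 1678 and 1329 CPM. Most of it was Cd74, at 357 and 587 CPM against 1562 and 1237 CPM. Without overlap, 4 of the 8 leukocyte markers were lower and 0 higher. All 5 endothelial markers were lower without overlap and summed to 687 and 919 CPM against 2658 and 3022 CPM. The part of these markers in the differences of the members was not tested.

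**Figure D2:**
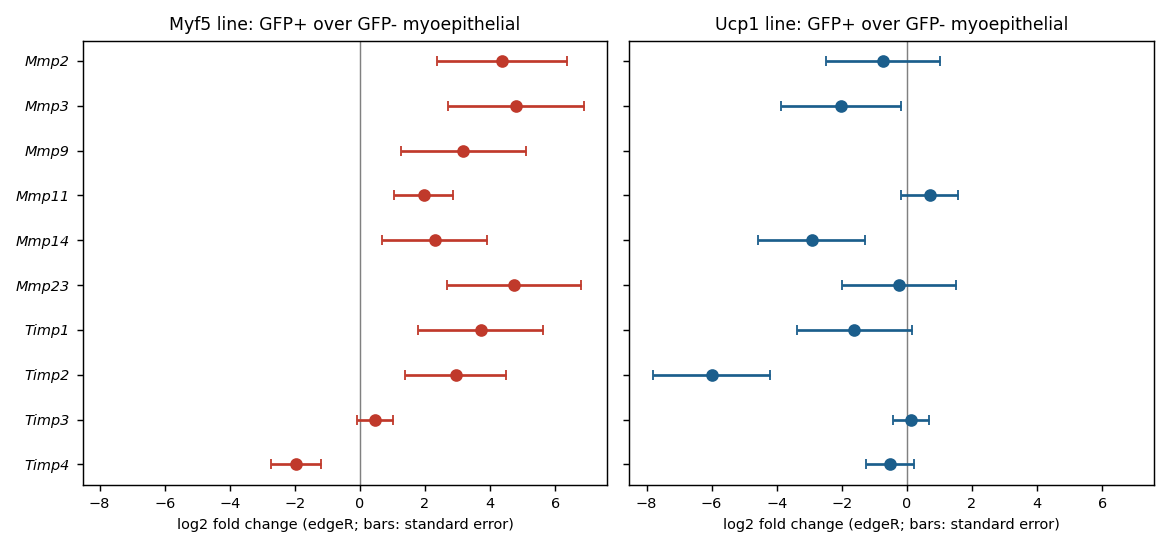
Log2 fold change of each member, GFP-positive over GFP-negative myoepithelial cells, in the Myf5 line (left) and the Ucp1 line (right), with standard errors derived from the edgeR F test as bars. In the Myf5 line 9 members lie above 0 and Timp4 lies at -1.97, and in the Ucp1 line Timp2 lies at -5.99. Mmp9 is not drawn for the Ucp1 line because it had 0 counts in both GFP-positive libraries.

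The same comparison in the Ucp1 line gave a different picture. Timp3 and Timp4 were abundant in both Ucp1 GFP-positive libraries, Mmp11 was detected in both, and 6 of the remaining members were nearly or wholly missing from 1 of the 2 libraries. Timp2 was low in both. No member was called.

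Timp3 had 1286 and 1043 CPM in Ucp1 GFP-positive libraries against 1174 and 963 CPM in GFP-negative ones, and the ranges overlapped (log2 0.12, SE 0.55, edgeR adjusted p = 0.940). The estimate plus and minus 2 standard errors spans -0.98 to 1.23 on the log2 scale. Timp4 had 616 and 470 CPM against 678 and 890 CPM (log2 -0.53, SE 0.74, edgeR adjusted p = 0.713). Timp2 had 0.110 and 7.53 CPM in GFP-positive against 280 and 209 CPM in GFP-negative libraries. Both GFP-positive values lay far below both GFP-negative ones, and the log2 difference was -5.99 (SE 1.80, edgeR adjusted p = 0.0540). It passed with no filter on low counts (edgeR adjusted p = 0.0464) and in DESeq2 (adjusted p = 5.8e-04). It did not pass with RLE scaling (edgeR adjusted p = 0.0567) or without either Ucp1 GFP-negative library (log2 -5.78 and -6.20). The log2 difference was -5.03 without the first Ucp1 GFP-positive library and -11.05 without the second. Each of these 2 fits left 1 library in that group, so the gap between its 2 libraries no longer entered the spread.

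Most enzymes were counted in 1 of the 2 Ucp1 GFP-positive libraries and nearly missing from the other. Mmp2 had 0 counts in the first and 3610 in the second, against 2585 and 2200 counts in Ucp1 GFP-negative libraries. Mmp3 had 692 counts in the first and 0 in the second, against 2023 and 1410 counts in GFP-negative libraries. Mmp14 had 940 and 4 counts, against 4382 and 4247 counts. These 3 genes were close between the GFP-negative libraries and split between the GFP-positive ones.

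Mmp23 had 276 and 0 counts in Ucp1 GFP-positive libraries, against 171 and 227 counts in GFP-negative libraries. Timp1 had 0 and 235 counts, against 226 and 352 counts. Mmp11 was the enzyme counted in both GFP-positive libraries, at 168 and 743 counts against 249 and 241 counts. Mmp9 had 0 counts in both, against 19 and 39 counts in GFP-negative libraries (edgeR adjusted p = 0.0858). By a floor of 3 counts over the group Mmp9 was at least 20.1-fold lower, a bound that covers counting error only.

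In all, 6 members (Mmp2, Mmp3, Mmp14, Mmp23, Timp1 and Timp2) had at most 5 counts in 1 Ucp1 GFP-positive library and at least 200 in the other, of 9 members that reached 200 in either. Of all genes tested that reached 200 counts in either library, 25.3% were split in this way in that group. In the other 5 groups the share was between 0% and 2.52%, and no member was split. These bounds were chosen after the values were seen, and the count is a description. The mean of the 2 libraries is for these genes no typical level.

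For the Ucp1 label edgeR called 0 members, against 14.3% of all genes tested, nearly all of them lower (14.0% lower and 0.277% higher). At an unadjusted p under 0.05 it marked 2 members, Mmp9 and Timp2, and 30.9% of all genes. DESeq2 called 1 member, Timp2, among 4152 of 16953 genes. Without overlap, 6 members were lower and 0 higher, beside 48.1% lower and 11.8% higher over all genes, so the members' share was near the background. Their median log2 difference was -1.17, beside -0.69 over all genes tested. Leaving out either Ucp1 GFP-positive library left 1 in that group, so the split between the 2 no longer entered the spread. Without the first, the log2 difference was 0.26 for Mmp2 and -13.15 for Mmp3. Without the second it was -13.54 for Mmp2 and -1.04 for Mmp3. Fibroblast markers summed to 823 and 192 CPM in Ucp1 GFP-positive against 3636 and 2935 CPM in Ucp1 GFP-negative cells. Pdgfra and Dpt were at 0 in the first GFP-positive library and Thy1 was at 0 in both. Pericyte markers summed to 912 and 587 CPM against 1342 and 1327 CPM and leukocyte markers to 631 and 513 CPM against 1369 and 1271 CPM, with 5 of the 8 leukocyte markers at 0 in each GFP-positive library. Endothelial markers summed to 3217 and 5007 CPM against 3466 and 3202 CPM. Their part in the members' values was not tested.

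The difference between the label effects, Ucp1 minus Myf5, was tested for each member in the same fit. Timp2 passed, with a log2 difference of -8.93 (SE 2.37, edgeR adjusted p = 0.0398), from a log2 effect of -5.99 with the Ucp1 label and of 2.94 with the Myf5 label, neither of which passed by itself. The other 9 members did not pass. Mmp14 had a difference of -5.21 (SE 2.30, edgeR adjusted p = 0.204), Mmp3 of -6.82 (SE 2.76, edgeR adjusted p = 0.176) and Mmp2 of -5.09 (SE 2.60, edgeR adjusted p = 0.279). Timp3 differed by -0.33 (SE 0.78, edgeR adjusted p = 0.946). This 1 member of 10 called lower compares with 10.7% of genes tested called lower. The Timp2 call was lost on leaving out either Myf5 GFP-positive library (adjusted p = 0.0588 and 0.0920), either Myf5 GFP-negative library (0.186 and 0.103) or either Ucp1 GFP-negative library (0.0946 and 0.0799), although the direction held. Leaving out either Ucp1 GFP-positive library left 1 in that group, so the split between the 2 no longer entered the spread. The difference was then -4.10 for Mmp2 and -7.97 for Timp2 without the first library. It was -17.90 for Mmp2 and -13.99 for Timp2 without the second.

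To compare levels between genes, counts were divided by exon length and scaled to a fixed sum per library (as in TPM). On this length-scaled level the 6 enzymes summed to 2380 and 1727 in Myf5 GFP-positive libraries, against 126 and 97.8 in Myf5 GFP-negative ones. In the Ucp1 line the sums were 115 and 142 with GFP, against 309 and 237 without. Ucp1 brown adipocytes had 9.41 and 11.8 and Myf5 brown adipocytes 3.40 and 3.89. The enzyme sum thus stood out in Myf5 GFP-positive cells and was lowest in brown adipocytes.

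The sum of the 4 inhibitors varied far less among mammary libraries than the enzyme sum. It was 1181 and 1817 in Myf5 GFP-positive libraries against 1502 and 954 in Myf5 GFP-negative ones, and 1143 and 946 against 1245 and 1108 in the Ucp1 line. Of the single inhibitors, Timp1 ran from 0 to 83.8 CPM and Timp2 from 0.110 to 929 CPM over the mammary libraries. Timp3 ran from 680 to 1333 CPM and Timp4 from 317 to 2035 CPM. The ratio of summed inhibitor to summed enzyme mRNA was 0.496 and 1.05 in Myf5 GFP-positive libraries, against 11.9 and 9.75 in Myf5 GFP-negative libraries. It was 9.91 and 6.65 in Ucp1 GFP-positive against 4.03 and 4.68 in Ucp1 GFP-negative libraries. Ucp1 brown adipocytes had ratios of 19.5 and 19.9 and Myf5 brown adipocytes of 2.03 and 3.30. Such a ratio of mRNAs is not a ratio of proteins, and the sums were not tested.

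The make-up of the sums differed too. On the length-scaled level Mmp3 gave 73.1% and 45.3% of the enzyme sum in Myf5 GFP-positive libraries, against 56.2% and 19.98% in Myf5 GFP-negative ones. In the first Ucp1 GFP-positive library Mmp3 gave 53.3% of the enzyme sum, Mmp14 21.9%, Mmp23 16.4% and Mmp2 0%. In the second, Mmp2 gave 79.98%, Mmp11 19.97% and Mmp3 0%. Timp4 gave 17.6% and 11.1% of the inhibitor sum in Myf5 GFP-positive libraries, against 69.7% and 52.8% in Myf5 GFP-negative ones. Timp1 and Timp2 together with Timp3 made up the rest in the GFP-positive libraries. In Ucp1 GFP-positive libraries Timp3 gave 60.2% and 59.3% and Timp4 39.8% and 36.9%, which left little for Timp1 and Timp2.

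**Figure D3:**
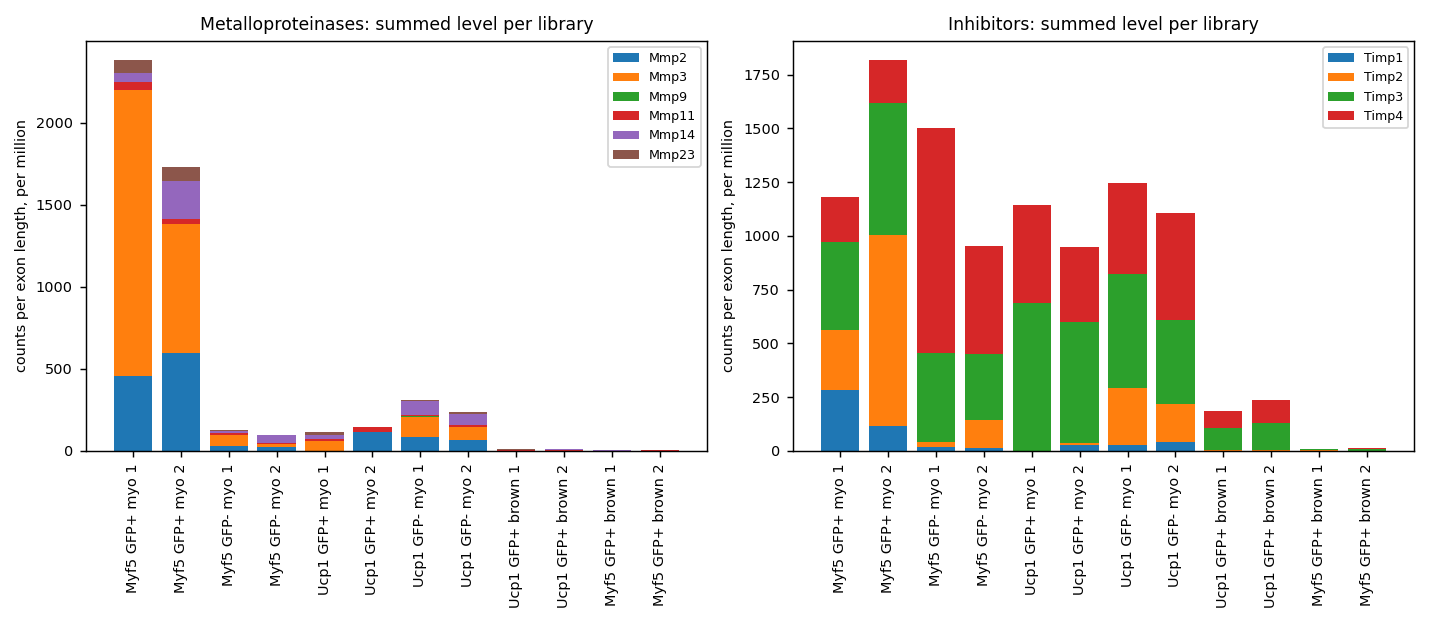
Summed length-scaled level (counts per exon length, scaled to a fixed sum per library as in TPM) of the 6 metalloproteinases (left) and the 4 inhibitors (right), with 1 bar per library and 1 colour per gene. The enzyme bars reach 2380 and 1727 in the Myf5 GFP-positive myoepithelial libraries and at most 309 elsewhere, while the inhibitor bars lie between 946 and 1817 in all 8 mammary libraries.

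The next comparison set unlabelled myoepithelial cells of both lines (n = 4 libraries) against brown adipocytes of both lines (n = 4). All 4 inhibitors and 2 enzymes, Mmp2 and Mmp3, were higher in the myoepithelial cells. Timp4 averaged 1104 ± 627 CPM in unlabelled myoepithelial cells and 156 ± 173 CPM in brown adipocytes (SD, n = 4 each; log2 4.53, SE 0.61, edgeR adjusted p = 0.0010). Timp3 averaged 983 ± 221 CPM and 297 ± 303 CPM (log2 2.75, SE 0.42, edgeR adjusted p = 0.0019). In both genes the brown adipocytes of the 2 lines lay apart. For every gene of this comparison the fitted log2 difference averages the 2 lines on the log scale. A low value in 1 line therefore weighs more in it than in the mean CPM, and it need not match the ratio of the means.

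Timp2 averaged 165 ± 108 CPM in unlabelled myoepithelial cells against 6.93 ± 4.73 CPM in brown adipocytes (log2 4.38, SE 1.18, edgeR adjusted p = 0.0238), and Timp1 6.51 ± 3.29 CPM against 0.121 ± 0.105 CPM (log2 5.83, SE 1.61, edgeR adjusted p = 0.0261). Mmp2 averaged 49.1 ± 27.5 CPM against 1.80 ± 0.80 CPM (log2 4.61, SE 1.46, edgeR adjusted p = 0.0434), a call lost with DESeq-type (RLE) scaling of library size (adjusted p = 0.0509). Mmp3 had 4619 counts over the 4 myoepithelial libraries and 2 counts over the 4 brown ones, a ratio of 824 with a counting interval of 228 to 6805 (95%, exact). Mmp14 did not pass, at 89.1 ± 53.2 CPM against 9.54 ± 8.23 CPM (edgeR adjusted p = 0.0527). Mmp9, Mmp11 and Mmp23 overlapped between the groups.

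The 6 of 10 members called higher compare with 14.6% of all genes tested. Without overlap, 7 members were higher, against 19.4% of genes. The members' median log2 difference was 4.15, beside 0.35 over all genes tested. Leaving out 1 library at a time reduced the count to 4 without the first Myf5 GFP-negative or the first Myf5 brown library. It was 3 without the second Myf5 GFP-negative, either Ucp1 GFP-negative or the second Myf5 brown library, and 2 without either Ucp1 brown library. Timp3 and Timp4 kept their calls in all 8 cases, Mmp3 in 6, Timp2 in 2, and Mmp2 and Timp1 in none. Fibroblast markers summed to between 561 and 3636 CPM in the unlabelled myoepithelial libraries, against 43.5 to 108 CPM in the brown ones. Endothelial markers summed to 2658 to 3466 CPM against 10.7 to 2312 CPM, pericyte markers to 391 to 1342 CPM against 100.1 to 556 CPM, and leukocyte markers to 1271 to 1678 CPM against 8.06 to 146 CPM. Luminal and milk genes summed to 31992 to 68094 CPM against 0.122 to 2.42 CPM. Their part in these differences was not tested.

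Within the Myf5 line, GFP-positive myoepithelial cells were set against GFP-positive brown adipocytes. All 10 members were higher in the myoepithelial cells without overlap, against 33.1% of all genes tested, and 8 were called higher, against 10.9% of genes. The uncalled members were Mmp23 (log2 4.83, SE 2.07, edgeR adjusted p = 0.128) and Mmp9. Timp3 had 1129 and 1333 CPM in myoepithelial libraries against 17.0 and 59.4 CPM in brown ones (log2 5.01, SE 0.65, edgeR adjusted p = 0.0017), and Timp4 had 410 and 317 CPM against 1.71 and 11.9 CPM (log2 5.73, SE 0.91, edgeR adjusted p = 0.0035). Mmp2 had 519 and 539 CPM against 2.44 and 0.641 CPM (log2 8.44, SE 2.43, edgeR adjusted p = 0.0392). Mmp3 had 0 counts in both brown libraries and was at least 4551-fold higher in the myoepithelial cells. Timp1 had 2110 counts over the 2 myoepithelial libraries and 1 count over the 2 brown ones, a ratio of 907 with a counting interval of 163 to 35823 (95%, exact). Without the second Myf5 GFP-positive library 5 of the 8 calls were kept. Without the first, or without either brown library, only Timp3 and Timp4 were kept. Fibroblast markers summed to 19230 and 11808 CPM in these myoepithelial libraries against 108 and 55.9 CPM in the brown ones, with Pdgfra at 0 in both brown libraries. Pericyte markers summed to 2725 and 2366 CPM against 100.1 and 101 CPM, endothelial markers to 687 and 919 CPM against 10.7 and 287 CPM, and leukocyte markers to 413 and 640 CPM against 8.06 and 15.03 CPM. Luminal and milk genes summed to 21178 and 9195 CPM against 0.122 and 0.275 CPM. Their part was not tested.

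Within the Ucp1 line the same comparison called 0 members, against 5.34% of genes called higher and 22.5% called lower. At an unadjusted p under 0.05 edgeR marked 1 member, Mmp3, and 41.0% of all genes. DESeq2 called 2 members, Mmp2 and Mmp3, among 6424 of 16953 genes. Timp3 had 1286 and 1043 CPM in Ucp1 GFP-positive myoepithelial libraries against 613 and 497 CPM in brown ones (log2 1.07, SE 0.56, edgeR adjusted p = 0.179). Timp4 had 616 and 470 CPM against 320 and 292 CPM (log2 0.83, SE 0.74, edgeR adjusted p = 0.442). Both inhibitors and Mmp11 were higher without overlap and did not pass the test, and these 3 members compare with 16.6% of genes. For the members missing from 1 myoepithelial library the direction turned with the library that was left out, as for Mmp2 (log2 5.41 without the first and -8.40 without the second).

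Timp3 and Timp4 also separated the brown adipocytes of the 2 lines, a comparison added after these values were seen. Timp3 had 613 and 497 CPM in Ucp1 brown adipocytes against 17.0 and 59.4 CPM in Myf5 brown adipocytes (log2 3.86, SE 0.62, edgeR adjusted p = 0.0275). Timp4 had 320 and 292 CPM against 1.71 and 11.9 CPM (log2 5.48, SE 0.90, edgeR adjusted p = 0.0298). Both were higher in both Ucp1 libraries by a wide gap. These were the 2 of 10 members called, against 1.29% of genes tested called higher. Without the first Myf5 brown library both calls were lost, and likewise without the first Ucp1 brown library. In these fits the calls of all other genes were lost as well. Without the second Ucp1 brown library the Timp4 call was lost. Each fit that left out a brown library left 1 in its group. Over these fits the log2 difference was 3.22 to 5.03 for Timp3 and 4.68 to 7.48 for Timp4.

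Mmp14 had 17.7 and 15.5 CPM in Ucp1 brown adipocytes against 2.81 and 2.11 CPM in Myf5 brown adipocytes, without overlap but without a call (edgeR adjusted p = 0.561). Mmp11 also lay higher without overlap, at 5.36 and 4.59 CPM against 1.71 and 4.12 CPM. In all, 5 members were higher without overlap, against 31.3% of genes, Mmp3 among them with 1 count in each Ucp1 library and 0 in the Myf5 ones. Mmp2, Mmp23 and Timp2 were low in both lines, between 0.641 and 12 CPM, and overlapped. Mmp3 and Mmp9 had at most 2 counts in any brown library, and Timp1 at most 3.

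Markers of vessels moved with the brown adipocyte lines. The 5 endothelial markers, Pecam1, Cdh5, Kdr, Tek and Emcn, summed to 2312 and 1182 CPM in Ucp1 brown adipocytes against 10.7 and 287 CPM in Myf5 brown adipocytes. The 5 pericyte markers summed to 556 and 350 CPM against 100 and 101 CPM. Of these, 4 were higher without overlap, and Cspg4 was lower, at 19.8 and 42.9 CPM against 92.9 and 56.5 CPM. The 8 brown adipocyte markers ran the other way, at 2776 and 8201 CPM in the Ucp1 line against 21317 and 24864 CPM in the Myf5 line. Fibroblast markers were low in all 4 libraries, between 43.5 and 108 CPM. Their part in the Timp3 and Timp4 difference was not tested.

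**Figure D4:**
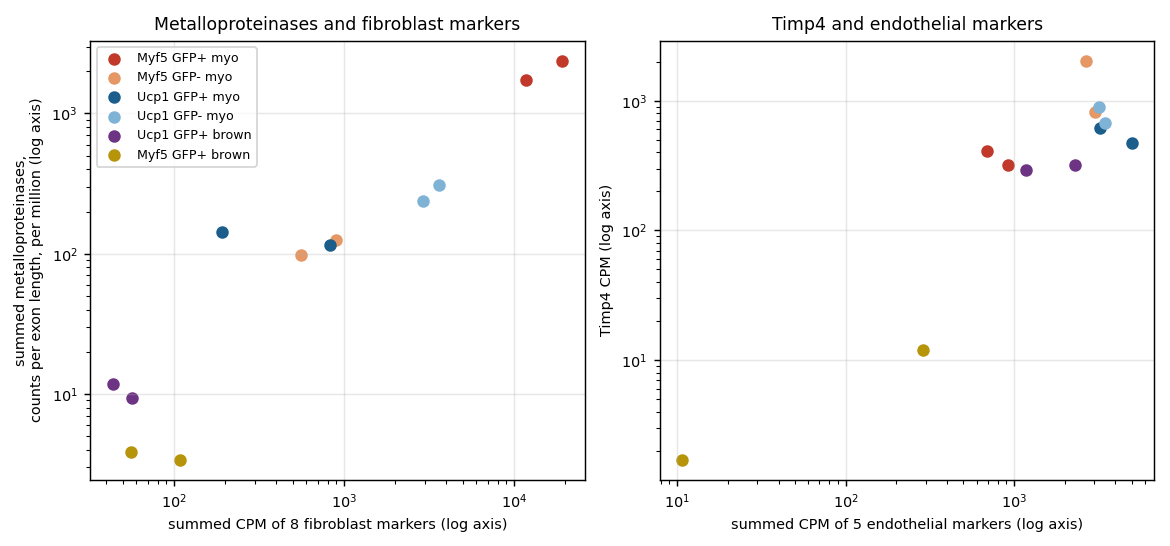
Left, summed length-scaled level of the 6 metalloproteinases against the summed CPM of 8 fibroblast markers, and right, Timp4 CPM against the summed CPM of 5 endothelial markers, with 1 point per library and log scales on all axes. The Myf5 GFP-positive myoepithelial libraries lie highest on both axes of the left panel, at 19230 and 11808 CPM of fibroblast markers, and the Myf5 brown adipocyte libraries lie lowest on both axes of the right panel.

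The order of groups by mean CPM differed between members. For Mmp2, Mmp3, Mmp14, Timp1 and Timp2 it ran from Myf5 GFP-positive cells through Ucp1 GFP-negative cells to the other groups. Mmp2, for example, averaged 529 ± 13.9 CPM in Myf5 GFP-positive cells, 72.5 ± 7.38 in Ucp1 GFP-negative, 43.8 ± 62.0 in Ucp1 GFP-positive and 25.7 ± 5.63 in Myf5 GFP-negative cells, then 2.05 ± 0.23 in Ucp1 and 1.54 ± 1.27 CPM in Myf5 brown adipocytes (SD, n = 2 each). The Ucp1 GFP-positive mean lay within 1 SD of its neighbours on both sides, and the brown means within 1 SD of each other. Timp4 had another order, with 1424 ± 864 CPM in Myf5 GFP-negative, 784 ± 150 in Ucp1 GFP-negative, 543 ± 104 in Ucp1 GFP-positive and 364 ± 66.0 in Myf5 GFP-positive cells, then 306 ± 20.02 in Ucp1 and 6.81 ± 7.21 CPM in Myf5 brown adipocytes. The first 2 of these overlapped within their spread, and the Myf5 brown adipocytes stood below all others.

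The genes whose log2(CPM + 1) followed a member most closely over the 12 libraries were named as a description, since libraries of a group share their source. Mmp2 was followed most closely by Pdgfra, the platelet-derived growth factor receptor of fibroblasts (r = 0.98), then by Glipr2 (r = 0.97) and by Timp1 (r = 0.97). Mmp14 was followed by the collagen VI chain gene Col6a2 (r = 0.97), Dbn1 and Ehd3 (r = 0.96 each). Mmp11 and Timp1 shared Cthrc1, a secreted protein of collagen-rich matrix, among their 3 closest genes (r = 0.94 and 0.96), and Mmp11 also had the collagen-degrading cathepsin Ctsk (r = 0.93). Mmp3 was followed by the interferon-inducible genes Ifi205 (r = 0.99) and Ifitm1 (r = 0.98) and by Maged2 (r = 0.97), and Mmp23 by Ugdh (r = 0.97), the complement gene C7 (r = 0.94) and Clec11a (r = 0.93). Timp2 was nearest to Cpxm2, Tmem119 and Plxdc2 (r = 0.95 each).

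Timp4 had other neighbours. They were the claudin Cldn15 (r = 0.99), the cadherin Cdh13, known from vascular cells (r = 0.99), and the transporter Abcg2 (r = 0.99). Timp3 was followed by Tmem206, Pros1, an anticoagulant plasma protein gene, and Eps8 (r = 0.99 each).

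Of 17 other metalloproteinase genes, 10 passed the filter on low counts. Between Myf5 GFP-positive and GFP-negative cells 0 of these were called. Without overlap 5 of 17 were lower and 3 higher, beside 20.2% lower and 14.5% higher over all genes tested. The median log2 difference of the 10 was -0.74, beside 3.77 for the 6 member enzymes. Mmp13, collagenase-3, had 14.4 and 6.72 CPM in Myf5 GFP-positive against 28.5 and 24.0 CPM in Myf5 GFP-negative libraries, and Mmp12, the macrophage elastase, had 14.7 and 4.72 CPM against 34.0 and 21.9 CPM, both in the direction opposite to Mmp2 and Mmp3. In the Ucp1 line Mmp13 was the 1 called gene of this list, beside 14.0% of all genes tested called lower. It fell to 0.0368 and 0.388 CPM in Ucp1 GFP-positive libraries, against 82.7 and 48.3 CPM in GFP-negative ones (log2 -8.19, SE 1.39, edgeR adjusted p = 0.0082). In unlabelled myoepithelial cells over brown adipocytes Mmp13 and Mmp12 were called higher, 2 of the 10 tested, beside 14.6% of all genes tested. Mmp24, a membrane-type enzyme, was called lower. Mmp13 had 0 counts in all 4 brown libraries and was at least 618-fold higher in the myoepithelial cells.

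Of the 17 genes of activation and clearance, 15 passed the filter, and 9 were higher and 2 lower without overlap in Myf5 GFP-positive cells, beside 14.5% higher and 20.2% lower over all genes tested, with 0 called. Their median log2 difference was 1.70. Reck, a membrane-anchored inhibitor of metalloproteinases, had 59.1 and 46.1 CPM in Myf5 GFP-positive against 5.33 and 13.7 CPM in Myf5 GFP-negative libraries. In the Ucp1 line 4 of these genes fell, beside 14.0% of all genes tested. Reck had 0 counts in both Ucp1 GFP-positive libraries, against 24.2 and 18.1 CPM in GFP-negative ones (edgeR adjusted p = 0.0014). By counting error alone Reck was at least 483-fold lower, a bound that leaves out the spread between libraries of that group. The proprotein convertases Pcsk6 (log2 -8.06, SE 1.04, edgeR adjusted p = 0.0015) and Pcsk5 (edgeR adjusted p = 0.0019), which cleave proproteins, fell as well. The difference between the label effects was called for 6 of the list, all lower, beside 10.7% of all genes tested called lower, with Reck, Pcsk6 and Pcsk5 at the smallest adjusted p-values (0.0021, 0.0024 and 0.0026 by edgeR).

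In unlabelled myoepithelial cells over brown adipocytes, 7 genes of this list rose, beside 14.6% of all genes tested, and 1 fell. Plaur, the urokinase receptor, averaged 247 ± 111 CPM in myoepithelial cells and 41.9 ± 61.2 CPM in brown adipocytes (log2 4.58, SE 0.58, edgeR adjusted p = 8.3e-04). Bsg, basigin, known as an inducer of metalloproteinases, was lower, at 339 ± 46.4 CPM against 1907 ± 880 CPM (log2 -2.40, SE 0.33, edgeR adjusted p = 0.0012).

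Of 19 Adamts genes, secreted relatives with thrombospondin repeats, 17 passed the filter. In Myf5 GFP-positive cells 7 were higher and 3 lower without overlap, beside 14.5% higher and 20.2% lower over all genes tested, with 0 called. In the Ucp1 line 4 fell, beside 14.0% of all genes tested, and the 3 of smallest adjusted p, Adamts15, Adamts3 and Adamts8, had 0 counts in both GFP-positive libraries. Adamts4, an aggrecanase, was by contrast abundant there, at 958 and 685 CPM in Ucp1 GFP-positive against 684 and 352 CPM in Ucp1 GFP-negative libraries. Adamts4 rose in unlabelled myoepithelial cells over brown adipocytes (log2 4.15, SE 0.46, edgeR adjusted p = 4.6e-04). There 5 of the 17 genes were called higher, Adamts1 and Adamts5 among them, beside 14.6% of all genes tested. Adamts4 also rose in Ucp1 over Myf5 brown adipocytes (log2 3.86, SE 0.64, edgeR adjusted p = 0.0318), together with Adamts1, beside 1.29% of all genes tested called higher.

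Of the 10 Adam genes, membrane-anchored sheddases and their inactive relatives, all passed the filter. In Myf5 GFP-positive cells 6 were higher and 0 lower without overlap, beside 14.5% higher and 20.2% lower over all genes tested, and 0 were called. Adam33 had 0 counts in both Ucp1 GFP-positive libraries and was at least 49.3-fold lower than in GFP-negative cells (edgeR adjusted p = 0.0240). Adam22, which lacks protease activity, was at least 277-fold lower (edgeR adjusted p = 0.0031). These bounds cover counting error only and leave out the spread between libraries. The sheddase Adam10 rose in unlabelled myoepithelial cells over brown adipocytes (log2 1.73, SE 0.32, edgeR adjusted p = 0.0050). It also rose in myoepithelial cells over brown adipocytes within each line (log2 1.83, edgeR adjusted p = 0.0239 in the Myf5 line, and log2 1.47, edgeR adjusted p = 0.0391 in the Ucp1 line).

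Several members lie where counting is less certain. Timp1, Timp3 and Timp4 are nested within the synapsin genes Syn1, Syn3 and Syn2 on the other strand, and 21.3% of the exon bases of Timp3 and 1.53% of those of Timp4 are also exon bases of an overlapping gene, whereas for Timp1 the share is 0%. For Mmp11, 5.58% of exon bases overlap Chchd10. Since the strand setting is not given in the sources used here, reads from those bases could not be told apart. Syn3 itself had 1 to 1866 counts per library. Of the 31-base sequences of Mmp3, 14.6% also occur in another gene, most of all in Mmp10, and for the other 9 members the share was at most 2.26%.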

How the data were processed

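RNA from 12 sorted mouse libraries was measured by bulk RNA-seq. The authors deposited 1 table of whole-number read counts per library by Ensembl gene, and TopHat, HTSeq, DESeq2 and the mm10 build are named per the submitters' processing notes, while their versions and the strand setting were not stated there. Gene symbols, positions and exon lengths came from GENCODE M21, and promoter windows from RefSeq (GRCm38.p6).

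All 12 libraries entered 1 edgeR 4.0.16 quasi-likelihood fit in R 4.3.3, with TMM scaling, filterByExpr at a minimum count of 10, and p-values adjusted by Benjamini-Hochberg across the 16953 genes that passed, with calls at 0.05. Every adjusted p without another tool's name comes from it. The SE of a log2 difference was derived as the absolute difference over the square root of the F statistic of its test. CPM values use the TMM-scaled library size. Length-scaled levels are counts divided by exon length and brought to the same sum in every library, as in TPM. The floor of 3 counts equals 0.0728 to 0.366 CPM per library. Bounds against a group at 0 use 3 counts over the group. These bounds and the 95% exact binomial intervals cover counting error only, and not the split between the Ucp1 GFP-positive libraries. The fit was tested on simulated data with known changes. Tables and figures used Python 3.11.15, pandas 2.3.3, numpy 2.4.6, scipy 1.17.1 and matplotlib 3.10.9.

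The members and gene lists were chosen with earlier results of these data known. All 10 members were named, with up to 3 called genes of smallest adjusted p per list, direction and comparison, and the 3 genes of highest correlation for each member with a mean of at least 10 CPM. Some of these genes are also given in other comparisons. Alternatives were RLE scaling, no filter, DESeq2 1.42.0, a replicate block, leaving out each library, and leaving out both Ucp1 GFP-positive myoepithelial libraries. The comparison of the brown adipocyte lines was added after the data were seen.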

Additional observations from a re-analysis of the deposited data

Results flagged for a closer look

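The Timp2 effect of the GFP label differed between the lines by a test of the difference itself, at -8.93 on the log2 scale (Ucp1 minus Myf5, SE 2.37, edgeR adjusted p = 0.0398). Timp2 had 0.110 and 7.53 CPM in Ucp1 GFP-positive against 280 and 209 CPM in Ucp1 GFP-negative libraries, and 367 and 929 CPM in Myf5 GFP-positive against 26.9 and 142 CPM in Myf5 GFP-negative libraries. All 4 libraries of the Ucp1 line and all 4 of the Myf5 line followed these directions. The call was lost in 6 of the 8 fits that left out 1 library (adjusted p = 0.0588 to 0.186), and the direction held in all 8.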

How the results depend on the processing

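Of the members' fold changes under the alternatives, 563 kept direction and side of the threshold, 65 lost a call, 34 gained one and 18 turned direction, and the cause was not tested. DESeq2 called 724 genes for the Myf5 label (edgeR 0), 4152 for the Ucp1 label (2423), 3096 for the label difference (1861), 5618 for Myf5 myoepithelial over brown cells (3350) and 1486 between brown lines (223). It called 1 member (Timp2) for the Ucp1 label, where edgeR called 0. For Ucp1 myoepithelial over brown cells it called 2 members among 6424 genes (edgeR 0 members among 4717). With no filter on low counts 1 member was called for the Ucp1 label, among 2150 of 23550 genes. Without both Ucp1 GFP-positive myoepithelial libraries, 232 genes and 3 members were called for the Myf5 label, 6886 genes for unlabelled myoepithelial over brown cells (4515), 6199 for the Myf5 myoepithelial over brown cells and 929 between brown lines. RLE scaling gave 135 genes between brown lines and shifted the median of all genes by 0.17 for the Ucp1 label, -0.24 for unlabelled cells over brown and -0.14 for Myf5 cells over brown. Mmp23 between brown lines turned to -0.0355 with RLE and -0.0352 with DESeq2.

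The labels do not say that replicate numbers mark a shared mouse, and only 2 pairs exist. Deviations of same-numbered libraries correlated at 0.472 for the Myf5 label, 0.0686 for the Ucp1 label, 0.108 and 0.0226 for myoepithelial over brown cells in the Myf5 and Ucp1 lines, and -0.109 between brown lines. With the replicate number as a block, 0 members and 1516 genes were called for the label difference (1861 genes without the block, Timp2 edgeR adjusted p = 0.0562). For Myf5 myoepithelial over brown cells it was 4 members (without Mmp2, Mmp11, Mmp14 and Timp2) and 2635 genes (3350 without the block). For unlabelled cells over brown it was 5 members (without Mmp2) and 3863 genes (4515 without the block). Between brown lines 0 members and 76 genes were called (223 genes without the block, edgeR adjusted p = 0.0533 for Timp3 and 0.0558 for Timp4).

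Leaving out 1 library at a time gave 0 to 0 genes and 0 to 0 members called for the Myf5 label, 1293 to 4165 genes and 0 to 4 members for the Ucp1 label, and 949 to 3740 genes and 0 to 6 members for the label difference. It gave 2008 to 2947 genes and 2 to 4 members for unlabelled cells over brown, 1163 to 2524 and 2 to 5 in the Myf5 line, 2194 to 6400 and 0 to 4 in the Ucp1 line, and 0 to 349 and 0 to 2 between brown lines. For the Ucp1 label, log2 differences ran over -13.54 to 0.26 for Mmp2, -0.28 to 1.27 for Mmp11, -10.05 to 0.73 for Mmp23 and -0.0468 to 0.26 for Timp3. In Ucp1 myoepithelial over brown cells they ran over -8.40 to 5.41 for Mmp2, -4.12 to 7.98 for Mmp3, -7.34 to 1.05 for Mmp14, -8.63 to 2.15 for Mmp23, -4.97 to 4.90 for Timp1 and -5.99 to 0.030 for Timp2. Between brown lines they ran over -0.25 to 1.67 for Mmp2, -0.35 to 0.51 for Mmp23 and -0.70 to 2.86 for Timp2. Where this left 1 library in a group, it was assumed to vary like the others.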
